A study of Mus musculus with 29 samples.

Results

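The mouse mitochondrial genome encodes 37 genes, and all 37 are described here: 2 ribosomal RNA (rRNA) genes, 22 transfer RNA (tRNA) genes and 13 protein genes. They were taken as every entry whose gene name starts with mt-, out of 54933 entries that comprise 54838 genes, 92 ERCC spike-in RNAs and 3 other sequences. They were measured in 29 single cells labelled as T cells, taken from spleen of OT-1 mice, whose transgenic T cell receptor recognises a peptide of ovalbumin (OVA). For 3 h, 21 cells had interacted with an antigen-presenting cell (APC) that presented OVA, and 8 cells with an APC that presented nothing. They are called OVA cell 1 to 21 and nothing cell 1 to 8, where the number is only a name. All cells share the OT-1 strain, the spleen as source and lysis of red blood cells. No source used here gives the age or number of mice or a sort of the cells, so each group counts as 1 sample and no test between the groups was made.

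Mitochondrial DNA is transcribed from both strands into long RNAs that span many genes. The tRNAs lie between most of the rRNA and protein genes, and cutting them out releases the other RNAs. The rRNAs form the mitochondrial ribosome, which translates the 13 mRNAs. Their proteins are subunits of respiratory complexes I, III and IV and of the ATP synthase, which make ATP by oxidative phosphorylation. All other proteins of mitochondria, including those of the mitochondrial ribosome, are encoded in the nucleus. The genome is so compact that some neighbouring genes share bases, and 2 pairs of mRNAs, mt-Atp8 with mt-Atp6 and mt-Nd4l with mt-Nd4, stay joined in the cell as bicistronic mRNAs.

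Values are TPM (transcript abundances per gene length, scaled to a fixed total per library). Detection means a TPM of 1 or more. The shared bases of 9 pairs of neighbouring genes are shown first, because the detection of both genes in a pair is compared by strand. Each stretch is written 5′ to 3′ on the plus strand of the mitochondrial sequence in build GRCm38, from GENCODE M21 transcripts, with 20 bases on either side. Capitals mark the bases that both genes share. In these 6 pairs both genes lie on the plus strand:
mt-Nd1 and mt-Ti (chrM:3686-3727): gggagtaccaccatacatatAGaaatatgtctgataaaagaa
mt-Nd2 and mt-Tw (chrM:4930-4971): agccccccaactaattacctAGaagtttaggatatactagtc
mt-Atp8 and mt-Atp6 (chrM:7907-7989): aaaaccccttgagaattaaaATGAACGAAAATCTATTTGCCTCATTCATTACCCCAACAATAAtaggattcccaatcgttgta
mt-Atp6 and mt-Co3 (chrM:8587-8627): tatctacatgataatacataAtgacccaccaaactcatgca
mt-Nd4l and mt-Nd4 (chrM:10147-10193): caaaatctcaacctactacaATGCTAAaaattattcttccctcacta
mt-Ts2 and mt-Tl2 (chrM:11651-11691): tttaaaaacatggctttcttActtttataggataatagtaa
In these 3 pairs the first gene lies on the plus strand and the second on the minus strand:
mt-Ti and mt-Tq (chrM:3752-3794): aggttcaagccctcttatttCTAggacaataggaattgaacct
mt-Co1 and mt-Ts1 (chrM:6850-6892): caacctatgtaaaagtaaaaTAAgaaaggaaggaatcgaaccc
mt-Nd5 and mt-Nd6 (chrM:13532-13585): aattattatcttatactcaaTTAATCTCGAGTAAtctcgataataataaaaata
The capitals between mt-Atp8 and mt-Atp6, and those between mt-Nd4l and mt-Nd4, begin with the start codon of the downstream gene and end with the stop codon of the upstream gene.

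The genes with the highest TPM of all 37 were short and were upstream members of 3 of these pairs. They are mt-Nd4l (297 bases, a subunit of complex I), mt-Atp8 (204 bases, a subunit of the ATP synthase) and mt-Ts2 (59 bases, a serine tRNA), all on the plus strand. Their sequences are given whole, again with capitals for the bases shared with the next gene:
mt-Nd4l (chrM:9877-10173): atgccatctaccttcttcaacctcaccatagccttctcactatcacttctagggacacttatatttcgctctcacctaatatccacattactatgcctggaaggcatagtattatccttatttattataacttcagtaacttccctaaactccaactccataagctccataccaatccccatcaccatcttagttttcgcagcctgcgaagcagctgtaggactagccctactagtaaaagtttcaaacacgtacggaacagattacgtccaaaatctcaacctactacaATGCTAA
mt-Atp8 (chrM:7766-7969): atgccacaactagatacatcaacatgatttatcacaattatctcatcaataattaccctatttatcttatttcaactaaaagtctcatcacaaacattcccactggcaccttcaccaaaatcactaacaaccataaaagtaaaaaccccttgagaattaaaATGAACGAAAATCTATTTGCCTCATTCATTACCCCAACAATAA
mt-Ts2 (chrM:11613-11671): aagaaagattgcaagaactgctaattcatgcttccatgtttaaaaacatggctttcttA

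The libraries differed widely in ways that touch every value given here. ERCC spike-ins, RNAs added to each tube, held 5.58% to 99.4% of TPM, and over 90% in 5 OVA cells and 4 nothing cells. Between 92 and 6385 genes were detected per cell. TPM keeps no read numbers, so the depth is unknown. A gene at 0 may be a failed estimate, since mt-Cytb and mt-Co1, which every cell with mitochondria needs, were each detected in 23 of 29 cells. The T cell label was set against its markers: at least 1 of 10 T cell markers was detected in 12 cells (10 OVA, 2 nothing), and Cd8a, a coreceptor of OT-1 cells, was listed at 0 in all 29. Of the other lists, at least 1 of 9 neutrophil markers was detected in 20 cells (15 OVA, 5 nothing), of 7 macrophage or dendritic cell markers in 12 (10 and 2), of 6 erythroid markers in 8 (6 and 2), of 4 NK cell markers in 2 (1 and 1) and of 7 B cell markers in nothing cell 4 alone. OVA cell 8 had all 9 neutrophil markers and nothing cell 4 had 6. The summed neutrophil level ran from 0 to 20527 TPM in OVA cells and from 0 to 4016 TPM in nothing cells. The part of other cell types in the values given here was not tested.

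The mitochondrial share of TPM was on average 14.4% ± 19.3 (SD over 21 cells) in the OVA group and 8.43% ± 15.4 (SD over 8 cells) in the nothing group. The lowest, median and highest shares were 0.00387%, 2.80% and 56.0% in OVA cells and 0.00147%, 0.422% and 40.5% in nothing cells. The groups overlapped, with 3 OVA cells above the highest nothing cell, and the gap between the means was smaller than either SD. Single libraries lay far apart. In 9 cells (7 OVA, 2 nothing) the share was at least 20%, and in 11 cells (6 OVA, 5 nothing) it was under 1%. The 9 cells with at least 20%, called rich cells here, were OVA cells 5, 7, 8, 9, 13, 16 and 19 and nothing cells 4 and 7. Their spike-in shares were 5.58% to 65.9%, and the part of the spike-ins in these shares was not tested. With spike-ins left out of the total, the mitochondrial share averaged 29.6% ± 23.1 over OVA cells and 15.0% ± 22.4 over nothing cells.

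A single short gene, mt-Nd4l, was the leading mitochondrial gene in all 9 rich cells. Its TPM is part of the share that defines these cells, so its lead there is partly given by that choice. mt-Nd4l held over 50% of the mitochondrial TPM in each of them except nothing cell 4, where it held 32.3%. It reached 424680 TPM in OVA cell 9, which is 42.5% of that library. Among the other rich cells, OVA cell 5 had 325298 TPM, OVA cell 7 had 103842, OVA cell 8 had 158732, OVA cell 13 had 125430, OVA cell 16 had 360237 and OVA cell 19 had 270960, and the level was 78715 in nothing cell 4 and 267879 in nothing cell 7. Only OVA cells 20 and 21 had it besides, at 12627.8 and 17234 TPM. The gene was therefore either at 12627.8 TPM or more, or listed at 0, with no value between. Its share of cells was 42.9% in the OVA group (9 of 21, exact 95% interval 21.8% to 66.0%) and 25% in the nothing group (2 of 8, interval 3.19% to 65.1%). These intervals cover counting error only.

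**Figure D1:**
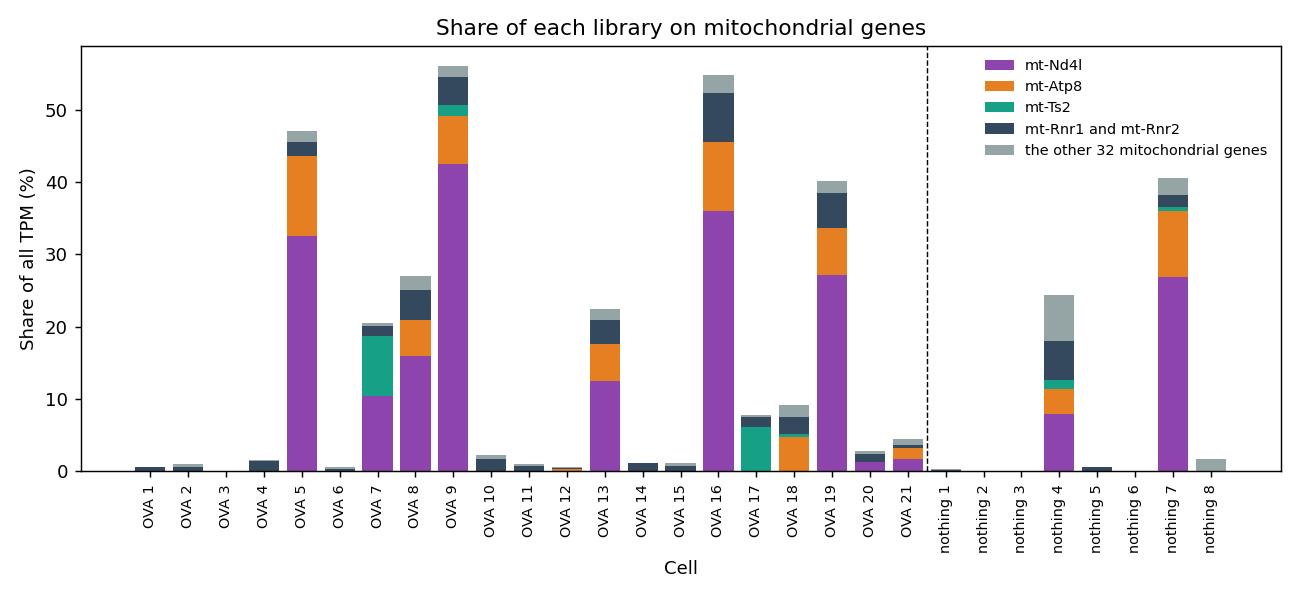
Share of all TPM on mitochondrial genes in each cell, in percent, stacked by gene: mt-Nd4l, mt-Atp8, mt-Ts2, both rRNA genes together, and the other 32 genes. The dashed line parts OVA cells from nothing cells, and mt-Nd4l makes up between 32.3% (nothing cell 4) and 75.8% (OVA cell 9) of each bar that reaches 20%. Being part of the bar, mt-Nd4l itself helps it to reach 20%.

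Without mt-Nd4l, mt-Atp8 and mt-Ts2, and with TPM rescaled to the remaining genes, the other 34 averaged 3.71% ± 4.44 of TPM over OVA cells and 2.77% ± 4.78 over nothing cells. The difference between the groups in the mitochondrial share went from 5.95 to 0.94 percentage points. With spike-ins also left out of the total, the other 34 averaged 12.6% ± 7.07 over OVA cells and 7.16% ± 6.82 over nothing cells, and the difference went from 14.7 to 5.47. For all 37 genes and spike-ins in the total, it was 3.86 without OVA cell 9, 3.92 without OVA cell 16, 10.5 without nothing cell 7 and 1.79 without the 9 cells over 90% spike-ins.

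The number of mitochondrial genes detected ran from 2 to 27 in both groups. Its mean was 15.6 ± 7.26 over OVA cells, with a median of 15, and 11.25 ± 9.45 over nothing cells, with a median of 8. No cell had all 37. OVA cells 9 and 16 and nothing cell 7 had 27 each, and OVA cell 3 and nothing cell 6 had 2 each. The difference of 4.37 genes was smaller than either spread, was 6.62 without nothing cell 7, and was 0.56 without the cells over 90% spike-ins.

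**Figure D2:**
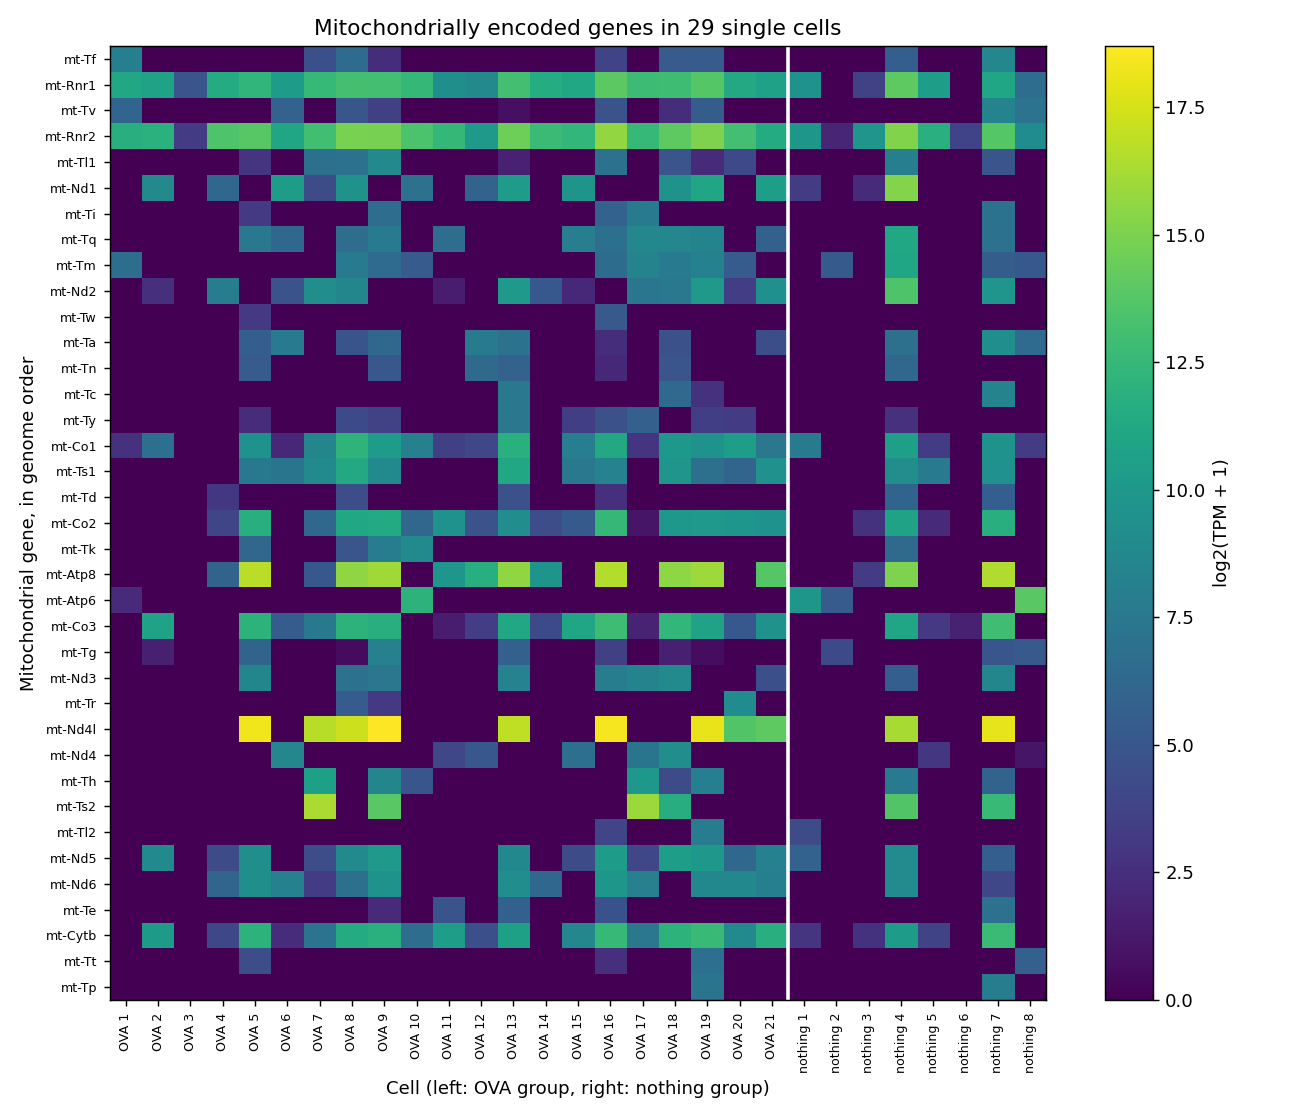
Level of each of the 37 mitochondrial genes (rows, in genome order) in each of 29 cells (columns), as log2(TPM + 1). The 2 rRNA rows are filled almost throughout, while mt-Nd4l is filled in 11 columns and mt-Nd4, the row below it, in 8 other columns.

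The mitochondrial TPM was divided unevenly among the 3 classes of RNA, and the division changed from cell to cell more than between groups. Class shares and tRNA levels in this report are in TPM. How evenly the library method captured the 3 classes was not tested, so they are no measure of RNA amounts. rRNA genes held 42.9% ± 34.1 of the mitochondrial TPM in OVA cells and 46.0% ± 42.5 in nothing cells. Protein genes held 49.1% ± 34.5 and 44.9% ± 37.9. tRNA genes held 7.97% ± 19.1 and 9.08% ± 19.1. Each of these differences was smaller than the SDs over cells, and each turned its sign with 1 nothing cell left out: rRNA to 4.20 percentage points without nothing cell 3, 3.90 without nothing cell 5 and 2.34 without nothing cell 6, protein to -1.79 without nothing cell 3 and -2.07 without nothing cell 5, and tRNA to 5.58 without nothing cell 2. In single cells, the rRNAs held over 50% in 13 cells, the protein genes in 14 and the tRNAs in 2. The leading gene was mt-Rnr2 in 12 cells, mt-Nd4l in 11, mt-Atp6 in 2 (nothing cells 2 and 8), mt-Atp8 in 2 (OVA cells 12 and 18), mt-Rnr1 in OVA cell 3 and mt-Ts2 in OVA cell 17.

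TPM divides by length, so a short gene with few bases of RNA can lead. With each TPM multiplied by the gene's length, which gives the share of bases, rRNA genes held 62.8% ± 26.4 of the mitochondrial total in OVA cells and 55.2% ± 39.4 in nothing cells, protein genes 35.7% ± 26.8 and 43.3% ± 37.8, and tRNA genes 1.47% ± 4.24 and 1.51% ± 3.64. On this scale the rRNA share was the higher one in OVA cells. The bases of mt-Nd4l and mt-Nd4 together were 60.5% of the mitochondrial total in OVA cell 9 and 56.4% in nothing cell 7.

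The rRNAs were the most regularly detected members. mt-Rnr2 (chrM:1094-2675), the RNA of the large subunit of the mitochondrial ribosome, was detected in 29 of 29 cells. Its lowest, median and highest levels were 9.08, 8353 and 52260 TPM in OVA cells and 2.93, 922 and 36941 TPM in nothing cells. mt-Rnr1 (chrM:70-1024), the RNA of the small subunit, was detected in 27 cells and listed at 0 in nothing cells 2 and 6. It ran from 29.7 over 3078 to 16097 TPM in OVA cells and from 0 over 441 to 16739.7 TPM in nothing cells. Both genes peaked in OVA cell 16 and nothing cell 4, and the groups overlapped over most of their range. mt-Rnr2 was the higher of the 2 in 27 cells, and OVA cells 3 and 17 were the exceptions. The ratio of mt-Rnr2 to mt-Rnr1 had a median of 2.30 in OVA cells (range 0.306 to 8.76, n = 21) and of 4.16 in the 6 nothing cells with both (1.24 to 72.9).

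Of the 13 protein genes, a median of 8 were detected per OVA cell (range 0 to 11) and of 4.5 per nothing cell (1 to 11). The genes are described by the complex their proteins belong to. Complex III has a single member here, mt-Cytb (chrM:14145-15288), which encodes cytochrome b. It was found in 18 OVA and 5 nothing cells. Its lowest, median and highest levels were 0, 486 and 6665 TPM in OVA cells and 0, 6.10 and 6688 TPM in nothing cells. Nothing cell 7 lay just above the highest OVA cell and nothing cell 4, at 1198 TPM, above the OVA median, and the other nothing cells were at 13.2 TPM or below.

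Complex IV, cytochrome c oxidase, has 3 members. mt-Co1 (chrM:5328-6872), its catalytic subunit, was detected in 18 OVA and 5 nothing cells, with a median of 255 TPM and a maximum of 4494 TPM (OVA cell 8) against 8.50 and 1470 TPM (nothing cell 4). mt-Co2 (chrM:7013-7696), which takes electrons from cytochrome c, was detected in 17 OVA and 4 nothing cells, with a median of 73.7 and a maximum of 5675 TPM (OVA cell 16) against 1.86 and 3302 TPM (nothing cell 7). mt-Co3 (chrM:8607-9390) was detected in 17 OVA and 4 nothing cells, with a median of 190 and a maximum of 7684 TPM (OVA cell 16) against 1.15 and 8027 TPM (nothing cell 7). In all 3 genes the lowest value was 0 in both groups, and nothing cells 4 and 7 were the highest nothing cells. In mt-Co3, nothing cell 7 exceeded every OVA cell. mt-Cytb, the 3 oxidase genes and mt-Nd5 were all detected together in 14 cells (12 OVA, 2 nothing).

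Complex I, NADH dehydrogenase, has 7 members, whose levels differed by orders of magnitude. Next to mt-Nd4l, whose detected levels had a median of 158732 TPM, its downstream partner mt-Nd4 (chrM:10167-11544) was detected in 8 cells only, which were OVA cell 6 (403 TPM), OVA cell 11 (14.8), OVA cell 12 (32.1), OVA cell 15 (111), OVA cell 17 (153), OVA cell 18 (612), nothing cell 5 (6.76) and nothing cell 8 (1.10). None of these is among the 11 cells with mt-Nd4l. mt-Nd1 (chrM:2751-3707) was detected in 12 OVA and 3 nothing cells, with a median of 62.4 and a maximum of 2195 TPM in OVA cells (cell 19) and values of 38370.2, 8.69 and 3.89 TPM in nothing cells 4, 1 and 3. Nothing cell 4 thus exceeded every OVA cell. In 4 of the 9 rich cells, as defined by their mitochondrial share of TPM (OVA cells 5, 9 and 16 and nothing cell 7), mt-Nd1 was listed at 0.

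mt-Nd2 (chrM:3914-4951) was detected in 14 OVA cells, with a median of 9.58 and a maximum of 1075 TPM, and in nothing cells 4 and 7 at 11723 and 869 TPM. mt-Nd3 (chrM:9459-9806) was detected in 8 OVA cells at 23.1 to 485 TPM, and in nothing cells 7 and 4 at 379.5 and 47.9 TPM. mt-Nd5 (chrM:11742-13565) was detected in 14 OVA cells, with a median of 20.9 and a maximum of 1418 TPM, and in nothing cells 4, 1 and 7 at 531, 57.3 and 46.3 TPM. mt-Nd6 (chrM:13552-14070), the only protein gene on the minus strand, was detected in 13 OVA cells, with a median of 74.7 and a maximum of 945 TPM, and in nothing cells 4 and 7 at 527 and 14.9 TPM. These 4 genes were listed at 0 in nothing cells 2, 3, 5, 6 and 8. Nothing cell 4, high in mt-Nd1 and mt-Nd2, also had the most genes detected (6385) and markers of several other cell types.

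The ATP synthase has 2 members, which share 43 bases and were never detected in the same cell. mt-Atp8 (chrM:7766-7969) was found in 61.9% of OVA cells (13 of 21, exact 95% interval 38.4% to 81.9%) and in 37.5% of nothing cells (3 of 8, interval 8.52% to 75.5%). Its median was 837 and its maximum 110452 TPM in OVA cells (cell 5), and it was at 91625, 35004 and 9.25 TPM in nothing cells 7, 4 and 3. mt-Atp6 (chrM:7927-8607) was detected in OVA cells 1 and 10 at 3.60 and 4344 TPM and in nothing cells 1, 2 and 8 at 958, 40.8 and 15464 TPM. In nothing cell 8 it made up 93.8% of all mitochondrial TPM. Of the 13 protein genes mt-Atp6 was detected in the fewest cells, although the gene downstream of it, mt-Co3, was detected in 21.

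**Figure D3:**
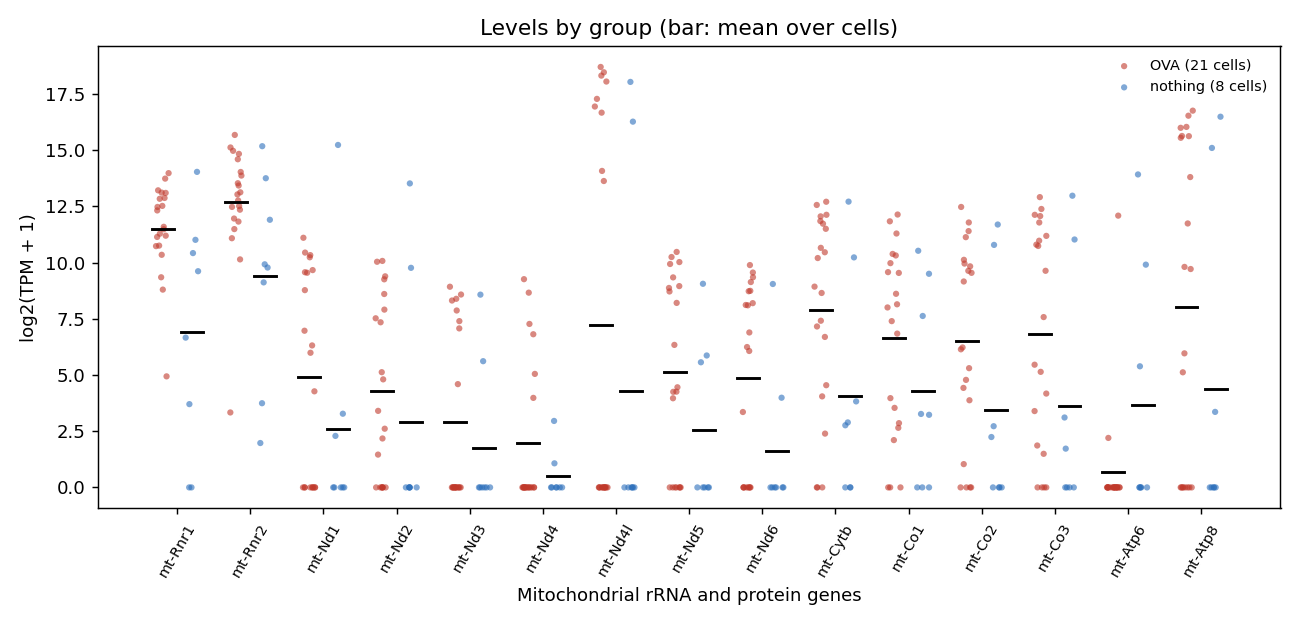
Level of each rRNA and protein gene in each cell, as log2(TPM + 1), for 21 OVA cells (red) and 8 nothing cells (blue), with a bar at the mean over cells. The groups overlap in every gene, mt-Nd4l and mt-Atp8 reach the highest values, and mt-Atp6 is the one gene whose bar is higher in nothing cells, a direction that turns when its chromosome 1 copy is added.

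None of the 6 pairs that overlap on the same strand was ever detected together. In 113 instances of a cell and a pair at least 1 of both genes was detected, and both were detected in 0. This held at a TPM above 0 and at a TPM of at least 10 as well. For mt-Nd4l and mt-Nd4, which share 7 bases, it was 11 cells with the first, 8 with the second and none with both. For mt-Atp8 and mt-Atp6 it was 16 and 5, for mt-Atp6 and mt-Co3, which share 1 base, 5 and 21, for mt-Nd1 and mt-Ti, an isoleucine tRNA, 15 and 5, for mt-Nd2 and mt-Tw, a tryptophan tRNA, 16 and 2, and for mt-Ts2 and mt-Tl2, a leucine tRNA, 6 and 3. Nothing cell 4 shows it at high levels: mt-Atp8 stood at 35004 TPM and mt-Co3 at 2081 TPM, with mt-Atp6 between them at 0.

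The pairs that overlap on opposite strands did share cells. mt-Nd5 and mt-Nd6, with 14 shared bases, were detected together in 13 of the 19 cells that had either. mt-Co1 and mt-Ts1, a serine tRNA, were together in 15 of 23, and mt-Ti and mt-Tq, a glutamine tRNA, in 5 of 13. Taken over these 3 pairs, both were detected in 33 of 55 instances (60%). Neighbours that do not overlap shared cells as well. All 21 such pairs on the same strand did so at least once (113 of 383 instances, 29.5%), and so did all 6 on opposite strands (31 of 97, 32.0%). mt-Tr and mt-Nd4l, which lie 1 base apart, were together in all 3 cells that had mt-Tr. Instances from 1 cell share a library and are no replicates, and no source used here says whether reads were counted by strand. Levels of genes with an overlapping partner are therefore uncertain.

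Among nuclear genes whose exons overlap, with both genes detected in at least 3 cells, 19 of 30 pairs on the same strand and 51 of 60 pairs on opposite strands were detected together in at least 1 cell. Both genes were detected in 20.2% of the instances with either on the same strand and in 33.5% on opposite strands. In these pairs a shared cell was thus found on the same strand too, unlike in the 6 mitochondrial pairs. Of those 6, mt-Nd2 and mt-Tw would miss the limit of 3 cells, as mt-Tw was detected in 2. At a limit of 1 cell, 119 of 335 nuclear pairs on the same strand and 345 of 925 on opposite strands shared a cell. Both genes were then detected in 11.9% and 14.6% of the instances with either.

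**Figure D4:**
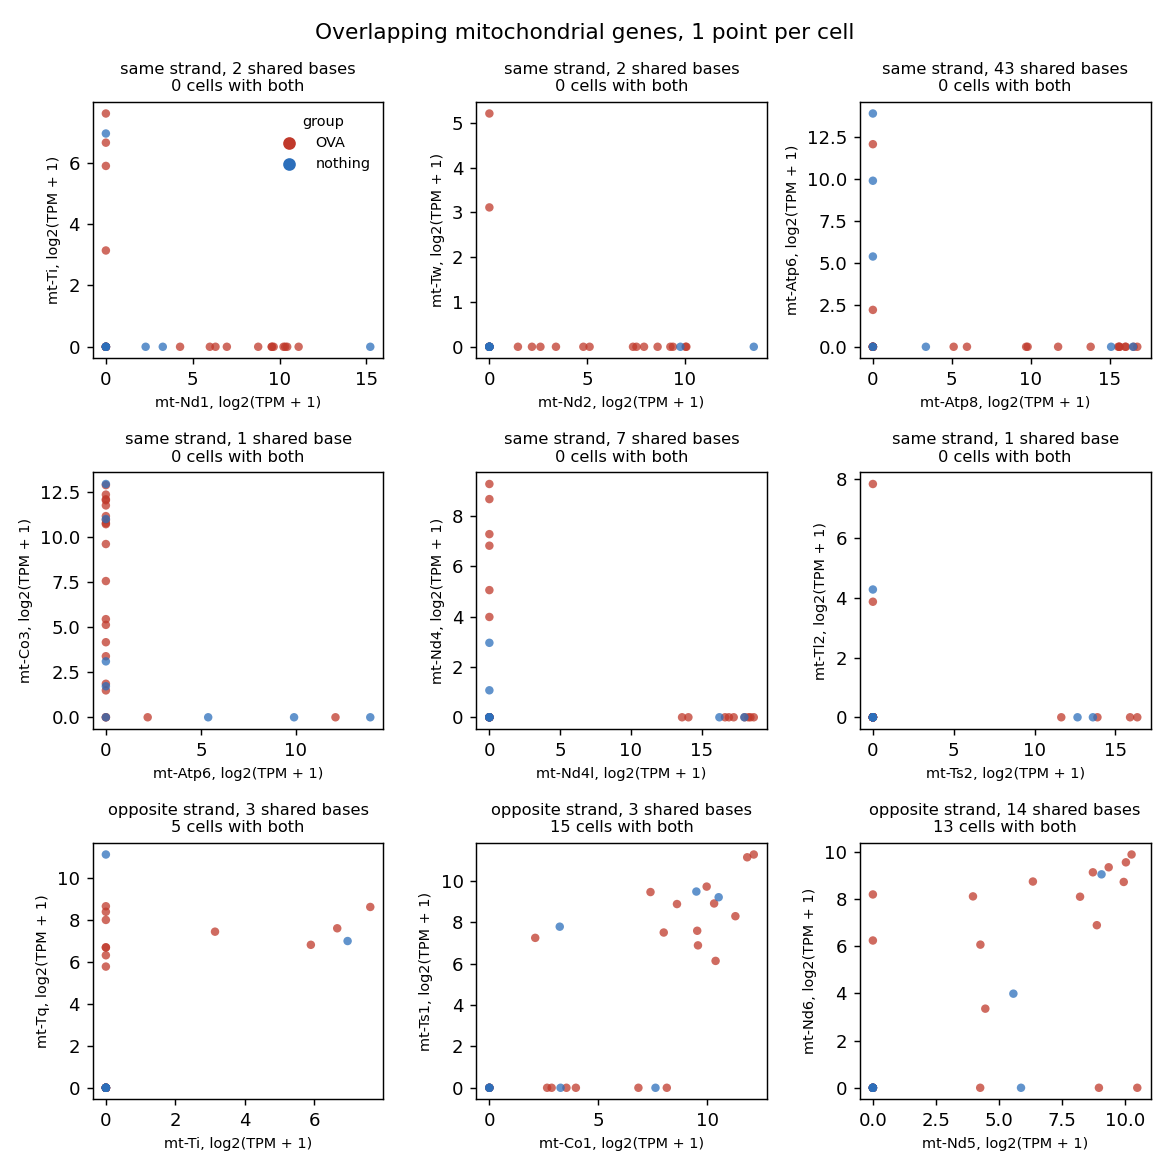
Levels of both genes of each overlapping pair, as log2(TPM + 1), with 1 point per cell (red OVA, blue nothing). In the 6 pairs on the same strand (upper rows) every point lies on an axis, and in the 3 pairs on opposite strands (bottom row) 5, 15 and 13 cells have both genes.

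Parts of the mitochondrial genome also exist as copies in the nuclear genome, where gene models carry their own entries. By alignment of at least 100 bases at 90% identity or more, 16 such models were found, of which 7 lie side by side on chromosome 1 and 3 on chromosome 2. A read inside an identical stretch fits both places. The models held 4.83% ± 6.73 of TPM in OVA cells (highest 23.9%, OVA cell 19) and 0.94% ± 1.97 in nothing cells (highest 5.54%, nothing cell 4). With them, the mitochondrial share averaged 19.2% ± 25.4 over OVA cells and 9.37% ± 16.9 over nothing cells.

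Some copies mirrored their mitochondrial gene cell by cell. Gm28661 (chr1:24614885-24615565), identical to mt-Co2 over 681 bases, was detected in the same 21 cells as mt-Co2, with a ratio between 0.976 and 1.004 in each. Gm28437 (chr1:24613189-24613971), identical to mt-Co3 over 783 bases, was detected together with mt-Co3 in 17 cells and lay within 10% of it in 16. Gm28438 (chr1:24612775-24613119), a copy of mt-Nd3, was detected in the same 10 cells as mt-Nd3 and lay within 10% of it in 6. The entries of mt-Co2, mt-Co3 and mt-Nd3 and of their copies thus had similar values in most cells that had both.

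The copies of mt-Atp6 and mt-Nd4, downstream genes of the overlapping mRNA pairs, were detected without them in most of their cells. That of mt-Co1 was mostly detected with its gene, but seldom at a similar level. Gm29216 (chr1:24615706-24616197), 99.8% identical to mt-Co1 over 483 bases, was detected together with mt-Co1 in 21 cells and lay within 10% of it in 3, with a ratio from 0.0248 to 3.21. Gm10925 (chr1:24613974-24614651), identical to mt-Atp6 over 678 bases, was detected in 23 cells, and in 18 of these mt-Atp6 was not. In those 18 its median was 1800 TPM and its maximum 6988 TPM (OVA cell 5). In the 5 cells with both, Gm10925 lay within 10% of mt-Atp6 in 3. It was present in 14 of the 16 cells with mt-Atp8. Gm28439 (chr1:24611535-24612410), identical to mt-Nd4 over 876 bases, was detected in 17 cells. In 7 of these mt-Nd4 was detected too, with 0 within 10%, and in 10 it was not. All 10 had mt-Nd4l, and nothing cell 7 was the one cell with mt-Nd4l and without Gm28439. In the 10 cells its median was 73559 TPM, and its maximum was 231475 TPM (OVA cell 19), or 23.1% of that library. By contrast Gm10222 (chr1:24612407-24612700), identical to mt-Nd4l over 294 bases, was detected in 2 cells only, with a maximum of 164 TPM.

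Summing a gene with its chromosome 1 copy changed the picture for mt-Atp6 and mt-Nd4. It changed little for mt-Co1, which was detected in 23 cells alone and in 24 with Gm29216. mt-Atp6 with Gm10925 was found in 18 OVA and 5 nothing cells, with medians of 913 and 994 TPM. mt-Nd4 with Gm28439 was detected in 15 OVA and 3 nothing cells, with medians of 2103 and 0 TPM. Leaving out the copies thus lowers the count of cells for mt-Atp6 from 23 to 5 and for mt-Nd4 from 18 to 8.

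**Figure D5:**
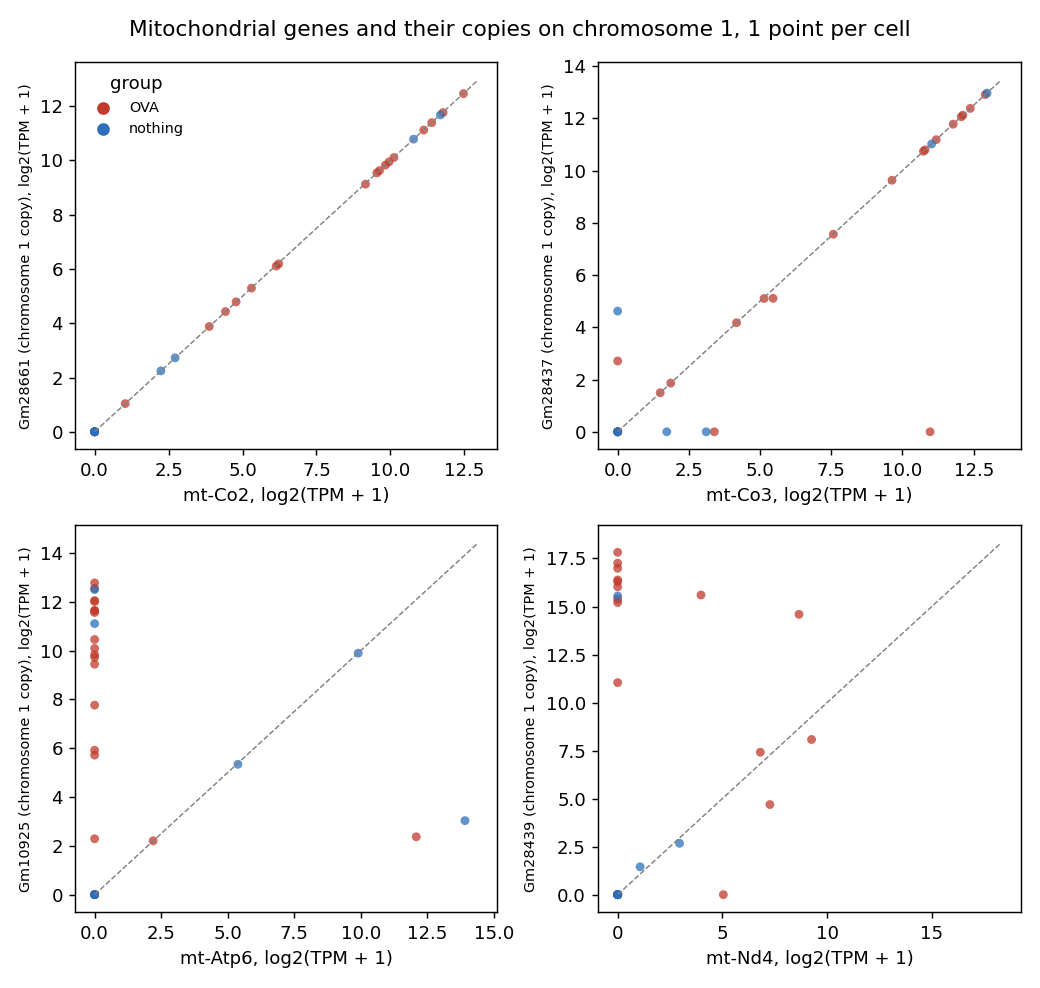
Levels of 4 mitochondrial genes against their copies on chromosome 1, as log2(TPM + 1), with 1 point per cell (red OVA, blue nothing) and a dashed line of equal levels. mt-Co2 and most cells of mt-Co3 lie on the line, whereas 18 cells of mt-Atp6 and 10 of mt-Nd4 lie on the vertical axis, with the copy alone.

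The 22 tRNA genes, of 59 to 75 bases, were detected in 2 to 15 cells each, and 16 of them in at least 5. A median of 4 was detected per OVA cell (0 to 16) and of 1.5 per nothing cell (0 to 15). The tRNA detected in the most cells was mt-Ts1 (chrM:6870-6938, serine, 15 cells, up to 2473 TPM in OVA cell 8), followed by mt-Tq (chrM:3772-3842, glutamine, 13 cells, up to 2264 TPM in nothing cell 4) and mt-Tm (chrM:3845-3913, methionine, 13 cells, up to 2155 TPM in nothing cell 4). mt-Ta (alanine) was detected in 12 cells, mt-Tl1 (leucine) in 11, mt-Ty (tyrosine) in 10, and mt-Tf (phenylalanine), mt-Tv (valine) and mt-Tg (glycine) in 9 each. All of these peaked at 641 TPM or less. mt-Ts1, mt-Tq, mt-Ta and mt-Ty lie on the minus strand. mt-Tm made up 38.3% of the mitochondrial TPM in nothing cell 2, a library with 97.7% spike-ins, at a level of 38.0 TPM.

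mt-Ts2 stood apart from the other tRNAs, and it is named here after its values were seen. Its 6 cells were OVA cells 7, 17, 9 and 18, with 83350.2, 61224, 15113 and 3209 TPM, and nothing cells 4 and 7, with 12444 and 6437 TPM. The highest value of any other tRNA was 2473 TPM. In the remaining cells it was listed at 0, and its 59 bases held 79.1% of the mitochondrial TPM in OVA cell 17. In all 6 cells its upstream neighbour mt-Th, a histidine tRNA with no shared base, was detected too.

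The 9 genes on the minus strand, mt-Nd6 and 8 tRNA genes, together held 1.63% ± 2.77 of the mitochondrial TPM in OVA cells (highest 12.2%, OVA cell 6) and 0.83% ± 1.39 in nothing cells (highest 4.03%, nothing cell 5). The difference was smaller than the spread between cells.

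Between the groups, rRNA and protein genes were on average higher in OVA cells, and the kept tRNA genes were split 10 to 10. The comparison asks how the cells that met OVA differ from those that met an APC with nothing. For each gene the mean of log2(TPM + 1) over nothing cells was subtracted from that over OVA cells, which understates differences of low genes. A gene was kept if detected in at least 3 cells, which left 35 of the 37 members and 3717 genes in all, and mt-Tr passed through OVA cells only. Of the 35, the difference was above 0 in 24 and below 0 in 11, while 56.4% of all 3717 kept genes were above 0. The median over the 35 was 0.84, beside 0.10 over all 3717 genes. A difference of at least 1 was reached upward by 17 members, beside 9.31% of all kept genes, and downward by 1, mt-Atp6, beside 6.62%. These shares over all kept genes were not matched to the members for number of detected cells or level. By class the count upward was 2 of 2 rRNA genes, 12 of 13 protein genes and 3 of 20 kept tRNA genes. Among members detected in at least 10 cells, 16 were at least 1 higher and 0 at least 1 lower, with a median of 2.36. The genes lie on 1 genome and move together in a cell, so these are not independent observations.

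The difference was 4.58 for mt-Rnr1 and 3.25 for mt-Rnr2. Among protein genes it was 3.84 for mt-Cytb, 3.64 for mt-Atp8, 3.24 for both mt-Nd6 and mt-Co3, 3.08 for mt-Co2, 2.96 for mt-Nd4l, 2.58 for mt-Nd5, 2.36 for mt-Co1, 2.31 for mt-Nd1, 1.45 for mt-Nd4, 1.36 for mt-Nd2, 1.14 for mt-Nd3 and -2.97 for mt-Atp6. The tRNA genes past 1 were mt-Ts1 and mt-Tq (1.596 each) and mt-Ty (1.49), all 3 on the minus strand. mt-Tl1 was at 0.56, mt-Tf at -0.06, mt-Tv at -0.32, mt-Tg at -0.48, mt-Tm at -0.39 and mt-Ta at -0.45. In every rRNA and protein gene the values of the groups overlapped. Each of their differences was smaller in size than both SDs over cells, except for mt-Rnr1, mt-Rnr2, mt-Atp6 and mt-Nd4. In these it exceeded 1 of both SDs. For mt-Cytb the SDs were 4.42 in OVA cells and 4.86 in nothing cells, and for mt-Nd4l 8.65 and 7.95.

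Single cells moved these values. Without nothing cell 4 the median was 1.42, and the difference was 4.12 for mt-Nd1, 2.88 for mt-Nd2, 4.67 for mt-Nd4l, 2.44 for mt-Ts1, 2.86 for mt-Tq and 1.47 for mt-Tl1. Without nothing cell 7 it was 2.34 for mt-Nd2, 2.11 for mt-Nd3, 4.92 for mt-Nd4l, 2.48 for mt-Ts1 and 1.03 for mt-Tl1. mt-Nd2 was at 0.95 without any 1 of nothing cells 1, 2, 3, 5, 6 and 8, and mt-Nd3 at 0.88, so both then missed 1. mt-Nd3 was also at 0.84 to 0.93 without any 1 of OVA cells 5, 8, 9, 13, 16, 17 and 18. mt-Atp6 went to -1.50 without nothing cell 8, and with its copy Gm10925 added the difference was 1.28, in the other direction. With Gm28439 added, mt-Nd4 went to 7.02. Nothing cell 7 counted as 0 in that sum, although it had 267879 TPM on mt-Nd4l. With the bases of mt-Nd4l and mt-Nd4 summed over their joint length, without the copy, the difference was 3.93. Sums with a copy were not run with single cells left out.

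Spike-ins held over 90% of TPM in 4 of 8 nothing cells and 5 of 21 OVA cells. Without these 9 cells the median over the members was 0.03, and 11 members were at least 1 higher and 8 at least 1 lower, beside 10.9% and 22.9% of all kept genes, whose median was then -0.19. By class the count upward was then 1 of 2 rRNA genes, 8 of 13 protein genes and 2 of 20 kept tRNA genes. mt-Rnr1 went to 1.37. Of the named genes at least 1 higher with all cells, 7 missed 1: mt-Rnr2 (0.79), mt-Nd4l (0.93), mt-Co1 (0.89), mt-Nd3 (0.27), mt-Tq (0.03), mt-Nd2 (-0.67) and mt-Ts1 (-0.65), of which the last 2 changed sign. Of the 8 members at least 1 lower, 7 were tRNA genes. With all cells and the spike-ins left out of the total, 17 members were at least 1 higher and 2 at least 1 lower, beside 17.1% and 10.3% of all kept genes.

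Nuclear genes that express the mitochondrial genome were found in few cells each. The lists hold 147 genes for transcription and copying of mitochondrial DNA, for RNA processing and for translation. Of these, 146 were measured, 88 were detected in at least 1 cell and 12 were kept, which is 8.22% of those measured, beside 6.78% of all 54838 genes. Of the 12, 5 had a higher and 7 a lower mean in OVA cells, while 56.4% of all kept genes had a higher mean. The median difference of the 12 was -0.09, beside 0.10 over all kept genes. Apart from Lars2, described next, no gene with a higher mean was detected in any nothing cell. When every detection of a kept gene is in OVA cells, a higher mean there is nearly given in advance. The split and the median therefore show no direction. Lars2, which charges the mitochondrial leucine tRNAs, stood apart: it was found in all 21 OVA cells and in 5 nothing cells, with a difference of 4.04 and a maximum of 3662 TPM in OVA cell 8. No other listed gene was detected in more than 5 cells. For comparison, the difference was 4.58 for mt-Rnr1 and 3.25 for mt-Rnr2. Lars2 was not among the nuclear copies found by alignment of at least 100 bases. Whether mitochondrial reads fell on a shorter stretch of Lars2 was not tested. Mrpl48, a protein of the large subunit of the mitochondrial ribosome, was detected in 3 OVA and 2 nothing cells (difference -1.16), and Tufm, the elongation factor that brings tRNAs to the ribosome, in 1 and 2 (-1.10). Mrps18c, a small subunit protein, was detected in 4 OVA cells (0.78), Mrpl21, a large subunit protein, in 4 (0.71), and Tfb2m, a transcription factor of mitochondrial DNA, in 3 (0.59), each in no nothing cell.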

How the data were processed

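Single cells were lysed in separate tubes and libraries were made with a modified SMART-seq2 method, per the labels' protocols. The authors deposited 1 table of TPM values with 1 column per cell, each summing to 1000000 over genes, spike-ins and 3 other sequences. Per the submitters' processing notes, the tools were featureCounts 1.6.4, StringTie 1.3.5 and HISAT2 2.1.0, with no role stated, and the genome is given as mm10 and as GRCm38. Filters on cells, use of strand and the handling of reads with several matches are not stated in any source used here.

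Members and lists were chosen with earlier results of these data known. All 37 member identifiers matched GENCODE M21 on GRCm38, which gave positions, strands and sequences. Copies were found with blastn 2.17.0 against the GENCODE M21 transcripts (at least 90% identity over at least 100 bases). A gene was detected at a TPM of at least 1 and kept if detected in at least 3 cells. Group differences are means of log2(TPM + 1), OVA minus nothing, computed with Python 3.11.15, pandas 2.3.3 and numpy 2.4.6, and are said to pass the fold used at an absolute value of 1. Each group is 1 sample, so SDs are over cells and no p-value is given. Intervals for shares of cells are 95% Clopper-Pearson. All rRNA and protein genes are named, with up to 8 tRNA genes detected in at least 5 cells, by number of cells (mt-Tg, tied with the last of them, is named too), and up to 6 kept nuclear genes by absolute difference; mt-Ts2, mt-Th, mt-Ti, mt-Tl2, mt-Tr, mt-Tw and the chromosome 1 copies were named after their values were seen. Doublets were not called. The arithmetic of the group difference was checked by adding known shifts to shuffled values. This check does not test detection, the filter or the comparison of the groups. Alternatives were other pseudocounts, filters, totals and averages, leaving out 1 cell at a time, and subsets of cells. The alternatives without OVA cell 8 and nothing cell 4, without the 3 short genes, weighted by length, or with a chromosome 1 copy added were chosen after seeing the data.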

Additional observations from a re-analysis of the deposited data

Results flagged for a closer look

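In the 8 nothing cells 29 quantities of the mitochondrial genes were looked at for a single cell far from the others, by the size of its gap to the next cell relative to the whole range. The gap passed the 95% limit in 6 of them, and chance alone passes it in about 5% of groups. Where most cells are listed at 0, as for mt-Nd1, mt-Nd4, mt-Nd6 and mt-Ty below, a single high cell passes easily. The tRNA share and the ratio of the rRNAs, also flagged, were above 0 in most cells.

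The tRNA share of the mitochondrial TPM was 55.9% in nothing cell 2, and the next highest was 7.53%. This library had 4 mitochondrial genes detected and 97.7% spike-ins. The ratio of mt-Rnr2 to mt-Rnr1 was 72.9 in nothing cell 3, with 6.68 as the next value among the 6 cells that had both, and this library had 99.4% spike-ins.

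Nothing cell 4 stood apart in 3 genes. mt-Nd1 was at 15.23 on the log2(TPM + 1) scale, with 3.28 as the next value. mt-Nd6 was at 9.05, with 3.99 next, and mt-Ty, a tyrosine tRNA, was at 2.67, with all other nothing cells at 0. This library had 6 of 9 neutrophil markers and 5 of 6 erythroid markers. mt-Nd4 was at 2.96 in nothing cell 5 and at 1.07 in the next cell, which are TPM values of 6.76 and 1.10.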

How the results depend on the processing

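The labels give no replicate numbers shared by the groups, and no paired analysis was possible because the cells carry no number, animal or batch that links them. The share of TPM on mitochondrial genes stayed higher in OVA cells under every alternative run, from 0.94 to 14.7 percentage points (3.86 to 10.5 with each cell left out). The class shares had no stable direction. For rRNA the difference of -3.13 percentage points became 1.35 with TPM summed over each group, 3.32 in cells with at least 1000 TPM on mitochondrial genes and 7.62 weighted by gene length (-9.28 to 4.20 with each cell left out). For protein genes 4.24 became -3.19, -8.34 and -7.58 under the same changes and -4.10 without cells over 90% spike-ins (-2.07 to 11.2). For tRNA genes -1.11 became 1.85 with summed TPM, 5.02 in cells with at least 1000 TPM and 5.60 without cells over 90% spike-ins (-4.79 to 5.58). Mitochondrial genes detected per cell differed by 0.56 to 7 (3.05 to 6.62 with each cell left out).

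The count of members at least 1 higher was 17, or 11 with a pseudocount of 10 and 11 without cells over 90% spike-ins (15 to 21 with each cell left out). The count at least 1 lower was 1, or 0 among genes detected in at least 10 cells, 2 without spike-ins in the total and 8 without cells over 90% spike-ins (1 to 2 with each cell left out, 2 without OVA cell 7, 9 or 17). Of all kept genes, 9.31% were at least 1 higher and 6.62% at least 1 lower with all cells. Without cells over 90% spike-ins these shares were 10.9% and 22.9%, and without spike-ins in the total 17.1% and 10.3%. For the other alternatives no such share is given. The members' median went from 0.84 to 0.03 without cells over 90% spike-ins and to 0.00 with medians over cells (0.72 to 1.42 with each cell left out). Of single genes, mt-Nd2 (-0.67) and mt-Ts1 (-0.65) reversed without cells over 90% spike-ins, and mt-Atp6 (1.28) with its copy added. The median of the nuclear list was -0.09, or 0.026 without spike-ins and 0.36 without OVA cell 8 and nothing cell 4. For every change named here, beyond the smaller number of cells or genes an alternative uses, the cause was not tested. The depth of the libraries is unknown, so a gene listed at 0 in a cell may be present in it.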
